A study of Mus musculus with 48 samples.

Results

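The genes described here encode the early steps of the classical and lectin pathways of complement. They were taken by symbol from the panel of the series and are C1qa, C1qb, C1ra, C1s, C2, C4a and Masp1, which are 7 of 248 endogenous genes measured. All 7 passed the filter of over 20 counts in at least 12 samples, which left 196 genes for testing. Masp1 passed it through loaded joints alone, with 28 of 36 loaded samples over 20 counts and healthy counts of 2 to 16, so its calls against healthy joints below are a description and support nothing about the set. RNA was counted with the NanoString nCounter inflammation panel for mouse, in which fluorescent barcodes bound to RNA molecules are counted without amplification. Each sample was knee joint tissue of male C57BL/6 mice labelled as 3 months old, in which synovium was combined with articular cartilage and subchondral bone. Healthy joints (n = 12) were neither loaded nor treated. The other 3 groups underwent repetitive compression of the knee as a model of post-traumatic osteoarthritis (PTOA). It began at 8 weeks of age with 500 compressive cycles at 9 N per session, with 5 sessions in each of 4 weeks. Of these groups, 1 had no treatment (n = 12, called untreated below). In the others the joints received polymer nanoparticles loaded with small interfering RNA and conjugated to an antibody to type II collagen. These carried an siRNA against Mmp13, the gene of a collagen-degrading metalloproteinase (siMMP13, n = 12), or a control siRNA (siNEG, n = 12). No group received particles without siRNA, and no healthy joint received particles, so siNEG against untreated joints compares carrier and control siRNA together, in loaded joints alone.

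The classical pathway starts when C1q, built from A, B and C chains, binds antibody or other targets and activates the proteases C1r and C1s. C1s then cleaves C4 and C2, whose fragments form an enzyme that splits C3, and the lectin pathway reaches the same step through mannose-binding lectins or ficolins and the MASP proteases. C1q is known to come largely from macrophages, while C1r, C1s and C4 are also made by fibroblasts and other connective tissue cells. In cartilage and synovium, complement is a known part of the response to joint damage.

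Total gene counts per sample ran from 36415 to 302377, and the negative control probes averaged 7.19 counts with a highest value of 26. Below, a normalized count is the deposited count scaled by the geometric mean of 6 housekeeping genes, and a count is above the negative controls if it exceeds the mean of that lane's negative probes by 2 SD. The labels do not state that each sample is a separate animal, and the spread behind the p-values may therefore be partly technical. Of 7 listed markers of cartilage, synovium and bone, 0 were on the panel, so the labelled tissue could not be checked against its defining genes. The 4 genes listed as muscle markers had a summed normalized count of 178 to 2805 over all 48 samples.

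In 4 libraries, siMMP13 replicates 7, 8 and 11 and healthy replicate 2, the share of a housekeeping gene lay over 1 log2 unit from its median. The 3 siMMP13 libraries held the lowest normalized counts of all 7 members in their group. C1qb, for example, had 525 to 1126 normalized counts in them and 2457 to 5219 in the other 9 siMMP13 libraries. Tyrobp, an adaptor gene of macrophages and other myeloid cells, had 11871 to 19828 in the 3 libraries and 5484 to 10304 in the other 9. Trem2, another macrophage marker, went the other way. It had 67.9 to 142 in the 3 libraries (median 131) and 118 to 265 in the other 9 (median 173). The housekeeping gene Tubb5 had 4884 to 8305 against 1340 to 2476, and Gusb had 183 to 279 against 494 to 944. The part of this shift of profile in the members' low counts was not tested. Results that rest on the siMMP13 group are therefore given with and without the 4 libraries.

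A second library that bears on the members is healthy replicate 7, which had the highest normalized count of its group for C1qa, C1qb, C1ra, C1s, C2 and C4a. Its C4a count of 2147 compared with 1371 in the next highest healthy sample. In a bulk sample, a lower count through fewer cells of a type cannot be told apart from less RNA per cell.

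**Figure D1:**
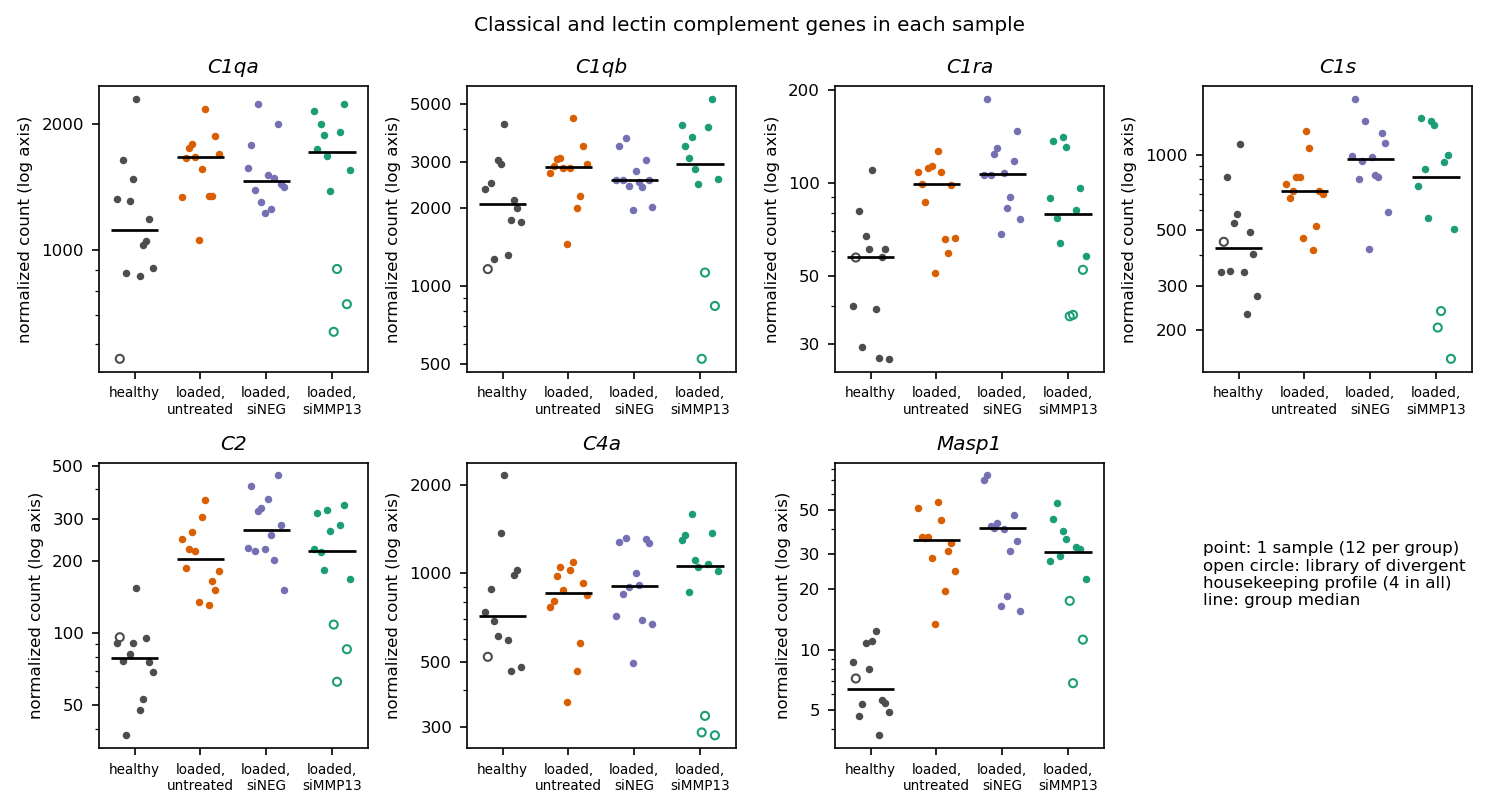
Normalized counts of each member on a log axis, 1 point per sample and 12 samples per group, with a line at the group median and open circles for the 4 libraries of divergent housekeeping profile. The Masp1 points of healthy joints lie between 3.73 and 12.4, below all untreated and siNEG points, while the C4a points of the 4 groups overlap.

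C2, Masp1 and C1ra were higher in loaded untreated than in healthy joints. C2, the component that becomes the protease of the C3-splitting enzyme, was 2.63-fold higher. C1ra, the protease that activates C1s, was 1.65-fold higher. Masp1, which encodes the first protease of the lectin pathway, was near background in healthy joints and at least 1.86-fold higher after loading. These 3 of 7 members were called higher and 0 lower at an adjusted p under 0.05, and 31.6% of all genes tested were called higher in this comparison and 46.4% in either direction. Apart from Masp1, 2 of the other 6 members were called. The median log2 fold change was 0.59 over the 7 members and 0.15 over all 196 genes. The member median includes Masp1, which passed the filter through loaded joints alone, so this median is a description and supports nothing about the set. The split of all genes into 62 higher and 29 lower was that of housekeeping scaling, and it was 47 and 51 with TMM scaling, which moved the median of all genes by -0.19 on the log2 scale. The 3 members were called under both.

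C1q, the recognition part of the pathway, did not pass the test in either measured chain. C1qa had 552 to 2295 normalized counts in healthy joints (median 1119) and 1059 to 2169 in untreated loaded joints (median 1667). C1qb had 1161 to 4197 in healthy joints (median 2070) and 1447 to 4420 in untreated ones (median 2867). The ranges of both genes overlapped widely, although 11 of 12 untreated samples exceeded the healthy median of C1qa and 10 of 12 that of C1qb. The log2 fold change was 0.41 ± 0.17 (SE) for C1qa, with an adjusted p of 0.051 by edgeR's quasi-likelihood test. It was 0.36 ± 0.20 for C1qb, with an adjusted p of 0.21. C1qa passed the threshold under 9 of 17 other scalings, filters and tests and in 6 of 24 fits that left out a sample, with the highest value, 0.53 and an adjusted p of 0.0090, without healthy replicate 7. The other 5 were those without healthy replicates 3 and 6 and untreated replicates 6, 9 and 10, with adjusted p-values of 0.032 to 0.049.

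C1ra and C1s encode the proteases carried by C1q. C1ra had 26.9 to 110 normalized counts in healthy joints (median 57.5) and 51.1 to 128 in untreated ones (median 99.1). C1s had 231 to 1107 in healthy joints (median 425) and 418 to 1244 in untreated ones (median 716). For each gene, 11 of 12 untreated samples lay above the healthy median, and the groups overlapped. C1ra was higher by 0.72 ± 0.22 on the log2 scale (adjusted p = 0.0054), and the difference passed under all 17 of them. C1s, with 0.59 ± 0.23, did not pass (adjusted p = 0.072). It passed without healthy replicate 3 (0.68, adjusted p = 0.046), without healthy replicate 7 (0.77, adjusted p = 0.020) and without the 4 divergent libraries (0.58, adjusted p = 0.029). Of these 4, only healthy replicate 2 is in this comparison, and C1s did not pass when it alone was left out. The others are siMMP13 libraries, which enter the spread shared by all groups of the fit. C1s also passed in 2 of the 17 other settings, the fit of only these 2 groups (0.59, adjusted p = 0.029) and the fit with the replicate block (0.68, adjusted p = 0.047). Mouse has near-identical partner genes of C1r and C1s, and the stretches targeted by the probes were not given in the sources used here, so counts of C1ra and C1s may include a partner.

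C2 encodes a protein that C1s cleaves, and C4a is a gene of the C4 family. In mouse the C4 protein that C1s cleaves is known to come from C4b, whereas C4a is the gene also called Slp. C2 had 37.5 to 154 normalized counts in healthy joints (median 79.3) and 131 to 361 in untreated ones (median 205). The groups overlapped through healthy replicate 7 alone, since the next highest healthy sample had 96.4. Its log2 fold change was 1.39 ± 0.20 (adjusted p = 4.2e-06), with 12 of 12 untreated samples above the healthy median. C4a had 467 to 2147 normalized counts in healthy joints (median 713) and 366 to 1094 in untreated ones (median 858), so the lowest value was in a loaded joint and the highest in a healthy one. Its log2 fold change was -0.11 ± 0.24 (adjusted p = 0.75), and without healthy replicate 7 it was 0.10. RefSeq's gene table lists both Slp and C4b among the synonyms of C4a, and the probe's target was not given in the sources used here, so the C4a counts may include C4b.

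Masp1 had 3.73 to 12.4 normalized counts in healthy joints (median 6.39) and 13.4 to 54.7 in untreated ones (median 35.1). All untreated samples lay above all healthy ones, as for 2.55% of the genes tested in this comparison. Its counts were above the negative controls in 1 of 12 healthy samples and in 12 of 12 untreated samples. The bound of at least 1.86-fold came from raising each healthy value below the background limit of its lane to that limit and taking the difference of the group means of log2(normalized count + 1), so it is a ratio of geometric means. The adjusted p was 2.2e-08, and the fitted log2 fold change of 2.20 ± 0.21 rests on healthy counts near background. The other lectin pathway genes on the panel were near background in every group. Masp2, a protease gene of the same family, was above the negative controls in 1 healthy sample, 1 untreated sample and 0 of 24 siRNA-treated samples. Mbl2, which encodes a mannose-binding lectin, was above them in 0 of 48 samples.

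**Figure D2:**
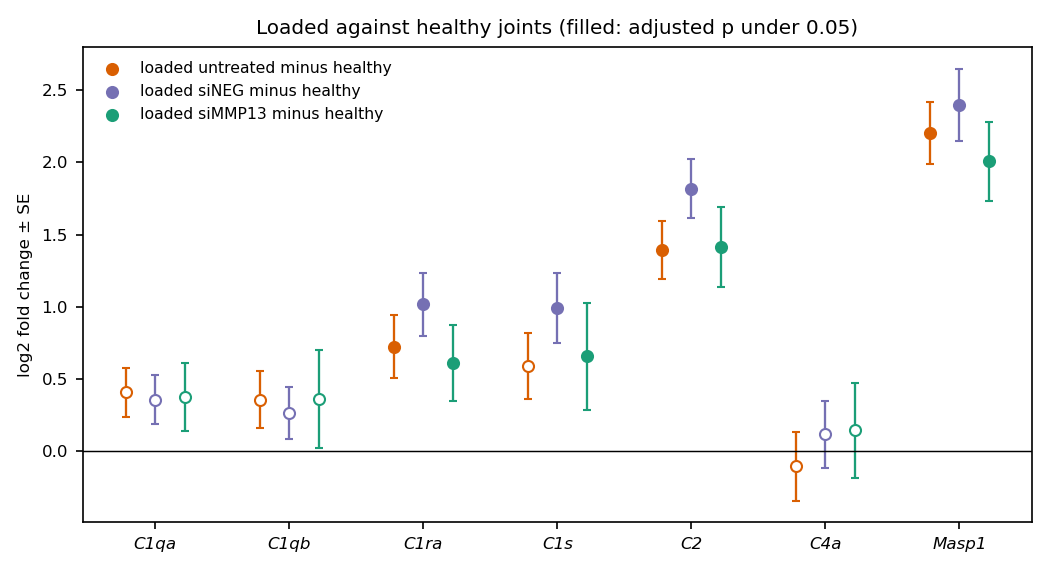
Log2 fold changes of the fit with SE bars for the 3 loaded groups (n = 12 each) against the same 12 healthy samples, filled where the adjusted p was under 0.05. C2 and Masp1 are filled in the 3 comparisons with values from 1.39 to 2.40, and C4a is open in each.

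The loaded joints given siRNA were compared with the same healthy samples, so these comparisons are not independent of the one above. In siNEG joints, C1ra, C1s, C2 and Masp1 were higher than in healthy joints and 0 members were lower, while 37.8% of all genes tested were called higher and 50% in either direction. In siMMP13 joints, the same 4 genes were higher, and 34.7% of all genes were called higher and 49.5% in either direction. Apart from Masp1, these were 3 of the other 6 members in each group. The splits of all genes were 74 higher and 24 lower for siNEG, 51 and 62 with TMM, and 68 and 29 for siMMP13, 54 and 52 with TMM. TMM moved the median of all genes by -0.24 and -0.15 on the log2 scale. The member median, which again includes Masp1 and is a description alone, was 0.99 for siNEG and 0.61 for siMMP13. Over all genes the medians were 0.20 and 0.14.

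In siNEG joints, C2 had 152 to 458 normalized counts (median 272), and only the lowest of these samples fell within the healthy range. C2 differed from healthy joints by 1.82 ± 0.20 on the log2 scale (adjusted p = 2.5e-08). C1ra had 68.4 to 187 (median 107) and differed by 1.02 ± 0.22 (adjusted p = 0.00015). These were increases of 3.52-fold and 2.02-fold, with all 12 siNEG samples above the healthy median of each gene. C1s had 423 to 1674 (median 964) and differed by 0.99 ± 0.24 (adjusted p = 0.0029). Masp1 had 15.6 to 74.1 (median 40.4), above the negative controls in 11 of 12 samples and at least 2.04-fold higher than in healthy joints (adjusted p = 8.8e-09). Its range did not overlap the healthy one, as for 3.06% of genes tested. C1qa had 1226 to 2236 (median 1463), C1qb 1959 to 3686 (median 2557) and C4a 494 to 1315 (median 906), with adjusted p-values of 0.083, 0.34 and 0.68. C1qa passed without healthy replicate 7 (0.48, adjusted p = 0.015) and under 4 of the 17 other settings, with a lowest adjusted p of 0.031.

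In the siMMP13 group, the 3 divergent libraries set the lower end of each range given here. C2 had 62.8 to 344 normalized counts (median 222) and differed from healthy joints by 1.41 ± 0.28 (adjusted p = 2.0e-06). Masp1 had 6.79 to 54.0 (median 30.6), above the negative controls in 9 of 12 samples and at least 1.51-fold higher than in healthy joints (adjusted p = 2.4e-07). C1ra had 37.0 to 141 (median 79.6) and differed by 0.61 ± 0.26 (adjusted p = 0.017). Each of these ranges reached into the healthy one, and 0.51% of genes had no overlap in this comparison. C1s had 153 to 1402 (median 815) and differed by 0.66 ± 0.37 (adjusted p = 0.045). The C1s call was lost under 9 of the 17 other settings, TMM among them (0.50, adjusted p = 0.073), and in 15 of 24 fits that left out a sample, where adjusted p-values over all 24 ran from 0.0099 to 0.10. It was kept without healthy replicates 3, 5, 6 and 7 and siMMP13 replicates 4, 7, 8, 11 and 12. The C1ra call was lost when the 2 groups were fitted alone (adjusted p = 0.053). C1qa had 640 to 2236 (median 1712), C1qb 525 to 5219 (median 2949) and C4a 281 to 1589 (median 1061), and their log2 fold changes of 0.37 ± 0.23, 0.36 ± 0.34 and 0.14 ± 0.33 did not pass. C1qa passed without healthy replicate 3 or 7, or siMMP13 replicate 7, 8 or 11, each left out singly (adjusted p-values of 0.012 to 0.046), and under 2 of the 17 other settings (lowest adjusted p 0.031).

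Without the 4 divergent libraries, 6 of 7 members were higher in siMMP13 (n = 9) than in healthy joints (n = 11), the exception being C4a. This fit was added after the data were seen. The siMMP13 libraries it leaves out held the lowest normalized counts of all 7 members in their group, so leaving them out raises the siMMP13 means. The 6 include Masp1, which passed the filter through loaded joints alone, so this count is a description and supports nothing about the set. In that fit 82 of the 196 genes tested were higher and 39 lower. C1qa then differed by 0.53 (adjusted p = 0.0014) and C1qb by 0.61 (adjusted p = 0.0032). The C1qb mean was 3504 ± 891 (SD) in these 9 siMMP13 samples and 2301 ± 854 in the 11 healthy samples. C1s differed by 0.96 (adjusted p = 0.00086), C2 by 1.69 (adjusted p = 2.0e-08) and C4a by 0.39 (adjusted p = 0.12). The same 6 genes were called when TMM scaling was used without these libraries, where 60 of 196 genes were higher and 72 lower.

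No member differed between treated and untreated loaded joints, or between the siRNAs, at an adjusted p under 0.05. Against siNEG joints, the siMMP13 group had lower mean counts of C1ra, C1s, C2 and Masp1, but 0 of 7 members passed, with 6.12% of all genes called. The log2 differences were -0.41 ± 0.22 for C1ra (adjusted p = 0.26), -0.33 ± 0.36 for C1s (0.46), -0.40 ± 0.27 for C2 (0.28) and -0.39 ± 0.31 for Masp1 (0.33). Without the 4 divergent libraries they were -0.20, -0.02, -0.14 and -0.16, and 0 members passed. C1qa, C1qb and C4a differed by 0.02 ± 0.19, 0.09 ± 0.31 and 0.03 ± 0.30. Without the 4 libraries these differences were larger, at 0.245 for C1qa (adjusted p = 0.35), 0.40 for C1qb (0.20) and 0.33 for C4a (0.41). Leaving out these libraries moved the values of all 196 genes up by a median of 0.117 on the log2 scale, so a rise was not particular to the members. Of the 196 genes, 3 were then higher and 2 lower. With all samples, housekeeping scaling called 3 genes of the panel higher and 9 lower here, while TMM called 8 and 1.

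Against untreated loaded joints, 0 of 7 members passed in the siMMP13 group, with 3.57% of all genes called. The log2 differences ran from -0.20 ± 0.28 for Masp1 to 0.25 ± 0.30 for C4a. Without the 4 divergent libraries all 7 differences were above 0 and 0 passed, with 0.55 for C4a (adjusted p = 0.15), 0.39 for C1s (0.36), 0.31 for C1qb (0.30), 0.28 for C2 (0.48), 0.19 for C1qa, 0.093 for C1ra and 0.035 for Masp1. In that fit the values of all 196 genes moved up by a median of 0.117 on the log2 scale, so the rise was not particular to the members. Of the 196 genes, 3 were then higher and 3 lower. With all samples, all genes split into 4 higher and 3 lower, or 9 and 4 with TMM. In siNEG joints against untreated ones, 0 members passed, with 1.53% of all genes called. The largest difference among the members was C2, at 0.42 ± 0.19 (adjusted p = 0.64), with 10 of 12 siNEG samples above the untreated median. C1s differed by 0.40 ± 0.20 and C1ra by 0.29 ± 0.17, each with an adjusted p of 0.80. In these 3 comparisons, 0 members had an unadjusted p under 0.05, and DESeq2's Wald test called 0. Of all 196 genes, that test called 3 higher and 9 lower in siMMP13 against siNEG joints. Against untreated joints it called 6 and 4 in the siMMP13 group, and 2 and 1 in the siNEG group. The SEs, which are those of differences of log2 means, were 0.11 to 0.36. Differences of the size seen here did not pass with these samples, which does not show that the groups were alike.

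Ratios of counts within a sample do not depend on scaling and are given as a description. The log2 ratio of C2 to C4a was -3.37 ± 0.52 (SD) in healthy joints, -1.92 ± 0.32 in untreated, -1.72 ± 0.31 in siNEG and -2.12 ± 0.46 in siMMP13 joints. The log2 ratio of C2 to C1qb was -4.76 ± 0.43 in healthy joints and -3.73 ± 0.34, -3.24 ± 0.32 and -3.62 ± 0.59 in the loaded groups in the same order. C2 counts were thus higher relative to C4a and C1qb in each loaded group. By contrast, the C1s to C1ra ratio stayed between 3.01 and 3.16 in the 4 group means, with SDs of 0.22 to 0.56. The 3 divergent siMMP13 libraries held the lowest of these ratios in their group, at 1.55 to 2.67, and lowered its mean. The other siMMP13 libraries had 3.07 to 3.52. The C1qa to C1qb ratio had means of -0.85 to -0.70. The 3 divergent siMMP13 libraries held the highest C1qa to C1qb ratios of their group, the highest being 0.29 on the log2 scale.

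**Figure D3:**
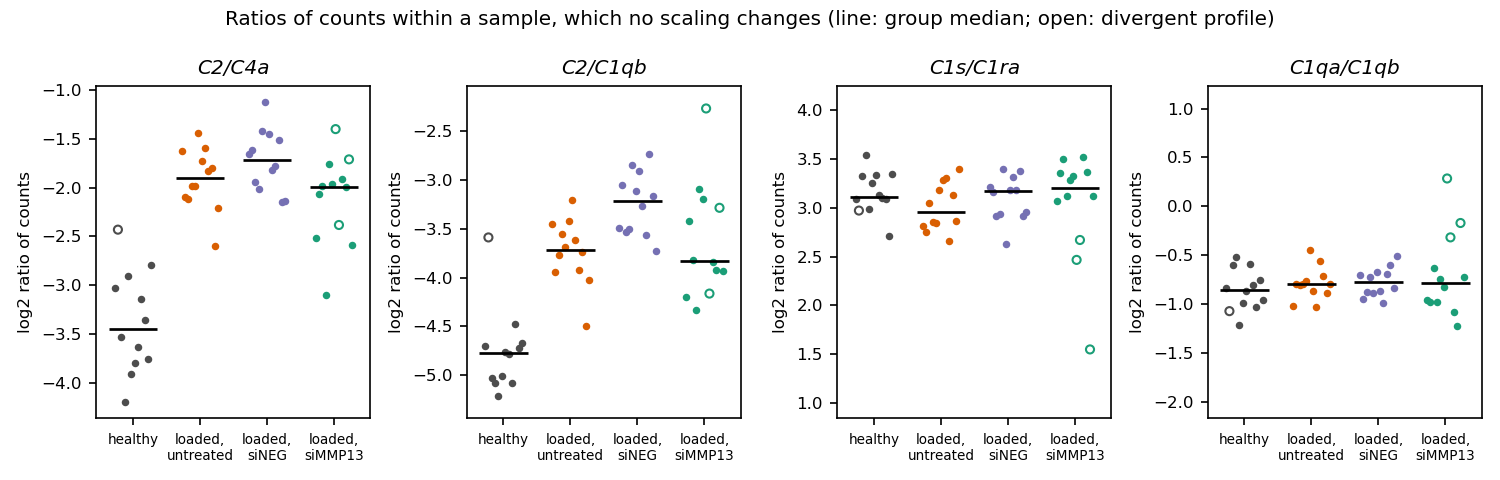
Log2 ratios of the counts of 2 members in each sample, by group (n = 12), with group medians as lines and open circles for the 4 divergent libraries. C2 over C4a and C2 over C1qb sit lower in healthy joints (means -3.37 and -4.76) than in the loaded groups, while C1s over C1ra and C1qa over C1qb have like levels in the 4 groups.

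The members varied together from sample to sample within groups. With group means removed, the 48 samples gave a Pearson r of 0.94 and a Spearman rho of 0.95 between C1qa and C1qb, and of 0.89 and 0.91 between C1ra and C1s. C1s and C2 gave 0.85 and 0.86. The weakest pair was C1qa and Masp1, with 0.53 and 0.51. Two-sided permutation within groups (100000 resamples, 21 pairs) gave p = 1.0e-05, the smallest it can give, for both measures in the first 3 pairs, and 1.9e-04 (r) and 3.0e-04 (rho) for the weakest. After Benjamini-Hochberg adjustment over the 21 pairs, the highest p was 3.0e-04 for either measure. The permutation test is against no correlation, and the median rho of a member with all tested genes was 0.31 to 0.41. Its p-values thus do not show that members vary together more than other genes do. Both genes of a pair share the scaling factor of their sample. With TMM the median r over the 21 pairs fell from 0.75 to 0.62, and that of C1qa with Masp1 was 0.23. Without the 4 divergent libraries the median was 0.67, and without the 2 samples farthest from the median of the first gene it was 0.73. Within single groups of 12 the median r was 0.67 in healthy, 0.80 in untreated, 0.74 in siNEG and 0.83 in siMMP13 joints.

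**Figure D4:**
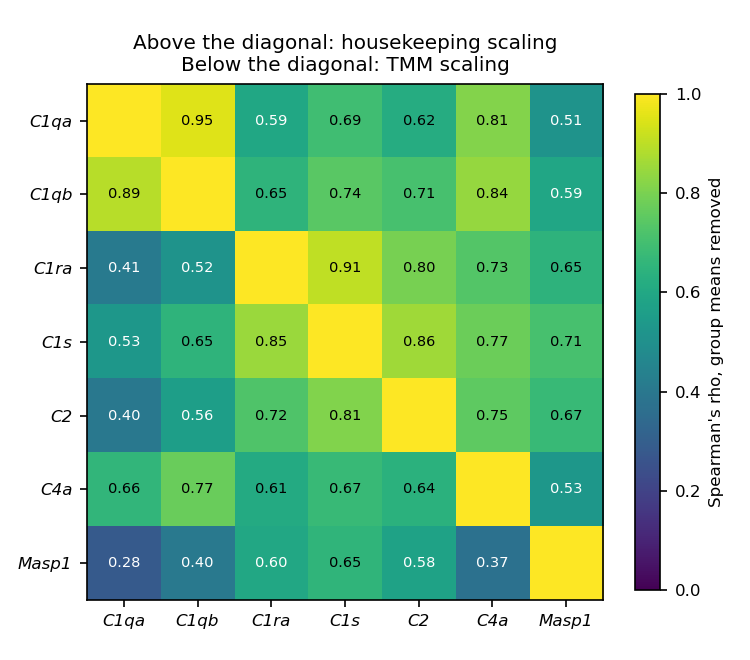
Spearman's rho between members over 48 samples after the group means were removed, above the diagonal with housekeeping scaling and below it with TMM scaling. The C1q pair (0.95 and 0.89) and the C1ra and C1s pair (0.91 and 0.85) are the highest under both, and Masp1 with C1qa is the lowest (0.51 and 0.28).

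Among all tested genes, those most like each member by the same Spearman correlation are given as a description, with a median of 0.31 to 0.41 over all genes. For C1qa they were C1qb, Myd88 (0.84), an adaptor of Toll-like receptors, and Il10rb (0.83), a chain of the interleukin-10 receptor. For C1qb, after C1qa, they were Il10rb (0.89) and Ly96 (0.88), the partner of Toll-like receptor 4. For C1ra and C1s, after each other, they were Cfb (0.81) and Tcf4 (0.80), and Tcf4 (0.88) and Tgfb3 (0.86). C2 was most like C1s (0.86), Cfb (0.85) and Jun (0.84). C4a was most like Ifi27l2a (0.85), an interferon-induced gene, C1qb (0.84) and Ly96 (0.82). Masp1 was most like Tcf4 (0.80), Cfb (0.78) and Hif1a (0.78), a factor of the hypoxia response. Cfb, complement factor B, is the alternative pathway counterpart of C2 and its neighbour in the genome, and it was among the 3 genes most like C1ra, C2 and Masp1. With TMM scaling each of these correlations was lower, from 0.66 for Myd88 with C1qa to 0.89 for C1qa with C1qb. Those with genes other than members were not repeated without the 4 divergent libraries.

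**Figure D5:**
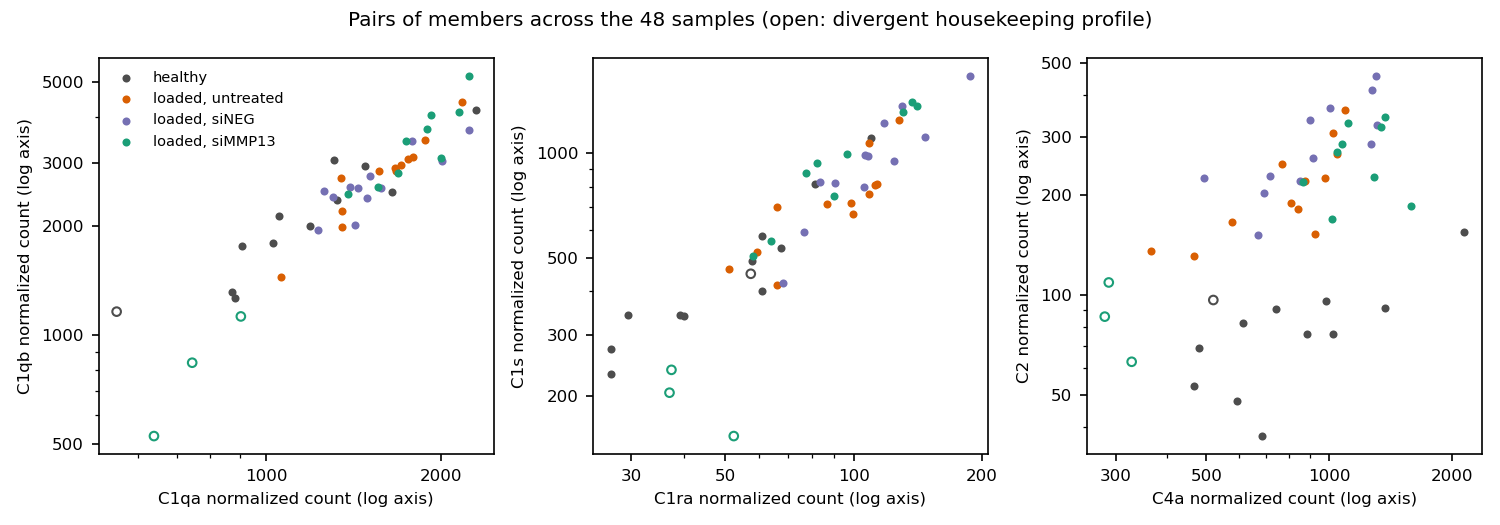
Normalized counts of 3 pairs of members in the 48 samples on log axes, coloured by group, with open circles for the divergent libraries. C1qb rises with C1qa and C1s with C1ra along 1 band, with 1 divergent siMMP13 library below it for C1s, whereas C2 against C4a has the healthy samples below the loaded ones at like C4a counts.

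Of 18 other complement genes listed, 13 were on the panel and 7 were tested. In untreated against healthy joints 2 were higher and 4 lower, with a list median of -0.50 on the log2 scale. Cfb was higher, from 437 ± 364 to 1179 ± 594 normalized counts (adjusted p = 0.0045), and so was C3ar1, the receptor of the C3a fragment, from 615 ± 572 to 1793 ± 682 (adjusted p = 0.00017). C3, the component on which all pathways converge, was lower, from 2707 ± 956 to 1878 ± 226 (adjusted p = 0.00023). The terminal component C7, the regulator Cd55 and the factor D gene Cfd were lower as well. In siMMP13 joints Cfb and C3ar1 were higher and Cd55 lower, and in siNEG joints Cfb and C3ar1 were higher and 0 were lower.

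Other lists moved in the same comparisons, and their part in the members' values was not tested. Of 8 macrophage and monocyte markers tested, 3 were higher and 4 lower in untreated than in healthy joints. Their summed normalized count was 5669 to 12516 in healthy (median 9998), 7978 to 11838 in untreated (median 8800), 6333 to 12334 in siNEG (median 8426) and 7765 to 23758 in siMMP13 joints (median 12750). In siMMP13 joints this sum was 13236 to 23758 in the 3 divergent libraries and 7765 to 15250 in the other 9. Tyrobp alone had a mean of 9888 in siMMP13 joints. Of 16 interferon response genes, 11 were higher and 0 lower in untreated joints, with a list median of 1.47, and 12 were higher in each siRNA group. Their summed count was 3042 to 10669 in healthy joints and 6525 to 18324 in untreated joints. Of 4 granulocyte markers, 0 were higher and 3 lower in untreated joints, as in siNEG joints, and 2 were lower in siMMP13 joints. Their summed count had a median of 5105 in healthy, 3293 in untreated, 3452 in siNEG and 3924 in siMMP13 joints. Of 5 lymphocyte and antigen presentation genes, 4 were lower in untreated, 3 in siNEG and 2 in siMMP13 joints, and 0 were higher. Their summed count ran from 918 to 2698 in healthy, 1068 to 1758 in untreated, 1169 to 1787 in siNEG and 1451 to 1871 in siMMP13 joints. Of 4 genes listed as muscle markers, Fxyd2 was lower in untreated and siMMP13 joints, Myl2 was higher in siMMP13 joints, and 0 passed in siNEG joints. Whether each of them is particular to muscle was not tested. The 1 adipocyte gene measured, Cfd, was lower in untreated joints, with a median of 900 against 2761 in healthy joints, and did not pass in the siRNA groups.

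In RefSeq's genes on GRCm38.p6, C1qa and C1qb lie on chromosome 4, C1ra and C1s on chromosome 6, C2 and C4a on chromosome 17 and Masp1 on chromosome 16. The panel's name C1s matched the current symbol C1s1 as a synonym, and the other 6 names matched directly. The RefSeq promoter table held 3 of the 7 genes. Their 250 bases before the start in that table are shown because they include the C1ra and C1s pair, which varied together, and C1qb, which did not pass in any comparison with all samples. They lie at chr4:136886201-136886450 on the minus strand for C1qb, at chr6:124512371-124512620 on the plus strand for C1ra, and at chr6:124542360-124542609 on the minus strand for C1s1, before the first of 2 starts listed for it in the promoter table. The C1s1 gene record reaches past that start, so that 33 bases of the stretch, with the matched word, lie within the record's span. Capitals mark a match to a searched word, the Ets family word in C1qb and the NF-kB word in C1s1.
C1qb: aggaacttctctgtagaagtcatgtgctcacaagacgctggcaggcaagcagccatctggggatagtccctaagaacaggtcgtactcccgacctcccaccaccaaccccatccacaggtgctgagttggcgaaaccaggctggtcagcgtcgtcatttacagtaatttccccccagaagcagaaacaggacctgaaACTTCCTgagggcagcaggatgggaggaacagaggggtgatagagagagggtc
C1ra: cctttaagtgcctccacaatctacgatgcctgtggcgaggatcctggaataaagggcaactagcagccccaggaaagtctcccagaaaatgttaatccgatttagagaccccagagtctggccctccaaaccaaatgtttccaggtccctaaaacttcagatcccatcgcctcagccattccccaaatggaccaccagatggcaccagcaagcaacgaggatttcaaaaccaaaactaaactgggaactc
C1s1: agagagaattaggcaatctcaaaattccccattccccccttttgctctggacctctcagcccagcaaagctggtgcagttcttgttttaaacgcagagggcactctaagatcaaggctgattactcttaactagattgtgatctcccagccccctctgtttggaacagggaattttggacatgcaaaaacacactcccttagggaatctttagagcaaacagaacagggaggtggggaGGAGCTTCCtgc
The Ets word AGGAAGT was found on either strand in 7.69% of 32851 promoters of the same length, and in C1qb it began 53 bases before the start on the opposite strand. An interferon-stimulated response element core (GAAANNGAA, 7.13% of promoters), a STAT word (TTCNNNGAA, 7.02%) and an AP-1 word (TGANTCA, 6.75%) had 0 matches on either strand of the 3 promoters. A loose NF-kB word (GGNNNTTCC, 15.7%) was found in C1s1, beginning 12 bases before the start on the same strand, and not in the others. A match of letters is a description and not evidence of binding.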

How the data were processed

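Knee joint RNA of 48 samples in 4 groups of 12 was measured on the nCounter system. The values are whole-number counts per probe, as deposited by the authors in the series matrix, and no normalization or background subtraction is given in the sources used here. The 268 probes are 248 endogenous genes, 6 housekeeping genes, 6 positive and 8 negative controls. No value was 0, and 142 were 1, which may stand for an undetected molecule. Groups were taken from the titles and treatment labels.

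Scaling used the geometric mean of the panel's housekeeping genes (Tubb5, Pgk1, Hprt, Gusb, Gapdh and Cltc). A gene was tested if at least 12 samples had over 20 counts of it, which 196 did. The test was edgeR's quasi-likelihood test (version 4.0.16, R 4.3.3) in 1 fit of all groups, with Benjamini-Hochberg adjustment over these genes. Fold changes were taken from that fit, and SEs come from log2(normalized count + 1). An SE is thus that of a difference of group means of log2 values, which can differ from the fitted change printed beside it. For C1qb in siMMP13 against untreated joints, the fit gave 0.0045 and limma -0.21. The fit was tested on simulated data. No pair of samples within a group agreed within counting noise (264 pairs). The members and lists were chosen with earlier results of these data known. All members are named in each comparison, with the 3 genes most like each and called genes of the complement list.

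Other settings were TMM, DESeq2 size factors, total counts, each housekeeping gene left out, a filter at 50 counts or none, negative control means subtracted, DESeq2 1.42.0's Wald test, limma 3.58.1 with a pseudocount of 1 or 10, fits of the 2 groups alone, the replicate number as a block, and each sample left out. Leaving out the 4 libraries of divergent profile, with housekeeping scaling or TMM, was added after the data were seen.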

Additional observations from a re-analysis of the deposited data

How the results depend on the processing

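The calls of C2 and C1ra against healthy joints were kept in every other setting tried for untreated and siNEG joints, and Masp1's in all 16 that tested it. A minimum of 50 counts left Masp1 untested. For siMMP13 joints C2 and Masp1 were kept likewise, while C1ra lost its call in the 2-group fit. For the siRNA and carrier comparisons 0 members passed under any setting. Low counts limit Masp1, with healthy values near background. The cause of the changes below was not tested.

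Fits of only the 2 groups called 5 members in untreated and 2 in siMMP13 joints against healthy ones. In these fits 70 of 196 genes were higher and 32 lower in the first and 58 and 25 in the second. Without the 4 divergent libraries, which was chosen after seeing the data, 5 were called in untreated and 6 in siMMP13 joints, with 69 of 196 genes higher and 41 lower in the first and 82 and 39 in the second. Leaving out single samples gave 3 to 5 in untreated joints, with 5 without healthy replicate 3 or 7. In these fits 56 to 70 of 196 genes were higher and 23 to 35 lower. The median r over pairs was 0.624 with TMM, 0.725 without the 2 farthest samples and 0.675 without the 4 libraries.

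Deviations of same-numbered samples from their group means had correlations from -0.81 to 0.68, with 4 to 6 of 12 pairs over 0.1 in each comparison. These were not set against samples of unlike number, so they cannot show whether the numbers pair samples. With the replicate block, 4 members were called in each group against healthy joints, C1s being added in untreated joints. Of 196 genes, 63 were then higher and 26 lower in untreated, 73 and 23 in siNEG and 66 and 31 in siMMP13 joints. In the other comparisons 0 members were called, with 1 to 3 genes higher and 0 to 3 lower.

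Signs that turned all belonged to differences that did not pass. For C4a against healthy joints, the log2 value in siMMP13 joints was -0.016 with TMM and -0.048 with total counts. In siNEG joints it was -0.087 with TMM, -0.066 with DESeq2 size factors, -0.026 with total counts and -0.11 with TMM without the 4 libraries. In untreated joints it ran from -0.17 to 0.099 when samples were left out. For siMMP13 against siNEG, C1qa was -0.030 with total counts, -0.014 less Gapdh, and -0.064 and -0.063 with limma at pseudocounts of 1 and 10. C1qb was -0.14 with limma at either pseudocount. C4a was -0.022 with total counts, -0.0026 less Gapdh, and -0.13 and -0.12 with limma at pseudocounts of 1 and 10. C1s was 0.011 with TMM without the 4 libraries. Leaving out samples gave -0.040 to 0.093 for C1qa, -0.020 to 0.20 for C1qb and -0.059 to 0.12 for C4a.

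For siMMP13 against untreated joints, C1qb was -0.012 with TMM, -0.014 less Gusb, -0.12 with total counts, -0.032 less Cltc, -0.21 with limma at either pseudocount and -0.057 with the replicate block. C1s was -0.018 with total counts, -0.19 and -0.18 with limma, and -0.0028 with the replicate block. C2 was -0.074 with total counts, -0.028 less Cltc, -0.013 less Gusb, -0.094 and -0.082 with limma, and -0.019 with the replicate block. Without the 4 libraries C1qa was 0.19, C1ra 0.093 and Masp1 0.035, and with TMM as well C1qa was 0.13 and C1ra 0.062. Leaving out samples gave -0.090 to 0.042 for C1qa, -0.11 to 0.11 for C1qb, -0.043 to 0.17 for C1s and -0.060 to 0.11 for C2.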
